A study of Oryctolagus cuniculus with 134 samples.

Results

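The response of the aortic valve (AoV) to a cholesterol-rich diet combined with cardiac irradiation was set against the response of the pulmonary valve (PV) of the same rabbits. The comparison rests on 28 of the 134 RNA-seq libraries of the series, 7 for each combination of valve and treatment, from 14 rabbits that each gave both valves. For every gene, the change from control to treated animals was measured in each valve, and the difference of the 2 changes on the log2 scale, the interaction of tissue and treatment, was tested. Of 29587 genes listed, 15975 had enough counts to be tested.

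All animals were male New Zealand White rabbits, 12 weeks old at the start of a protocol of 16 weeks. The Ctrl rabbits ate chow. The IR/CHT rabbits ate a diet with 0.3% cholesterol for 16 weeks, were given vitamin D2 at 25000 U per day (for 2.5 kg of body weight) during 15 days, and after 8 weeks of diet were exposed to X-rays, 24 Gy in 3 fractions of 8 Gy, 48 hours apart. The X-ray field was aimed at the thoracic aorta and the aortic valve, and the dose that reached the pulmonary valve is not given in the sources used here. CHT rabbits (6 libraries of each valve) had the same diet and vitamin D2 without irradiation and are used for the changes on the diet and for the step to IR/CHT. Lard rabbits, which ate a diet with 5% lard and had the same vitamin D2, entered the model only through its estimate of the spread. IR/CHT differed from Ctrl by cholesterol, vitamin D2 and irradiation together. Irradiation on top of the diet was compared through CHT, whereas cholesterol and vitamin D2 cannot be told apart, and irradiation or vitamin D2 alone was not analysed here. Each library holds the RNA of a whole valve sample, in which fewer cells of a type and less RNA per cell cannot be told apart.

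The aortic valve opens from the left ventricle into the aorta and works at high pressure, whereas the pulmonary valve does the same on the low-pressure right side. Both leaflets are built by valve interstitial cells, fibroblast-like cells that lay down the matrix, under a sheet of endothelium. Cells that take up excess cholesterol shut down their own sterol synthesis, which SREBP2 drives, and switch on cholesterol export through the liver X receptors (LXR). Macrophages that go on storing it as droplets of cholesterol ester become foam cells, the hallmark of atherosclerotic lesions. Ionizing radiation breaks DNA and activates p53, which halts the cell cycle and induces repair and death genes.

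The gene counts of the 28 libraries summed to 13978094 read pairs in the smallest, 17101865.5 in the median and 26273291 in the largest, so that a gene at 1 CPM (read pairs per 1e+06 counted) had 13.98 counts in the smallest library. The matrix-producing character of the samples was plain in all 28 libraries, in which the markers of valve interstitial cells and fibroblasts summed to between 18388 and 35625 CPM. A few libraries stood apart from their group. PV IR/CHT L275 had 112 CPM of endothelial markers where the other 6 had at least 1174, PV IR/CHT L176 had 21355 CPM of smooth muscle markers where the other 6 had at most 2106, and AoV Ctrl L198 was low in endothelial markers with 110 CPM. Heart muscle markers reached 12073 and 4353 CPM in AoV Ctrl L240 and L277 and 5667 and 4804 CPM in PV Ctrl L200 and L263, against 27.5 to 237.2 CPM in the AoV IR/CHT libraries. The libraries were prepared on 2 plates, and each of the 4 groups had at least 2 libraries on each.

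The valves of the same rabbits differed widely in their response to IR/CHT. The radiation dose in PV is not known, so local dose and valve cannot be told apart. The response to IR/CHT differed between them for 6416 genes (40.2% of those tested; edgeR quasi-likelihood test, Benjamini-Hochberg adjusted p under 0.05), of which 2689 (16.8%) were shifted upwards in AoV relative to PV and 3727 (23.3%) downwards. Within AoV, IR/CHT changed 7173 genes (44.9%) with a fold change over 1.5, 3217 up (20.1%) and 3956 down (24.8%). Within PV, it changed 73 genes (0.457%), 62 up (0.388%) and 11 down (0.0689%). The count of 73 depended on single libraries, with 41 genes without PV IR/CHT L176 and 92 without PV IR/CHT L275. At an unadjusted p under 0.05, 1560 genes passed in PV and 9339 in AoV, and the DESeq2 test called 127 genes in PV. With the libraries of plate 1 alone the interaction was called for 4976 genes, and with the smaller plate 2 alone for 1304.

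**Figure D1:**
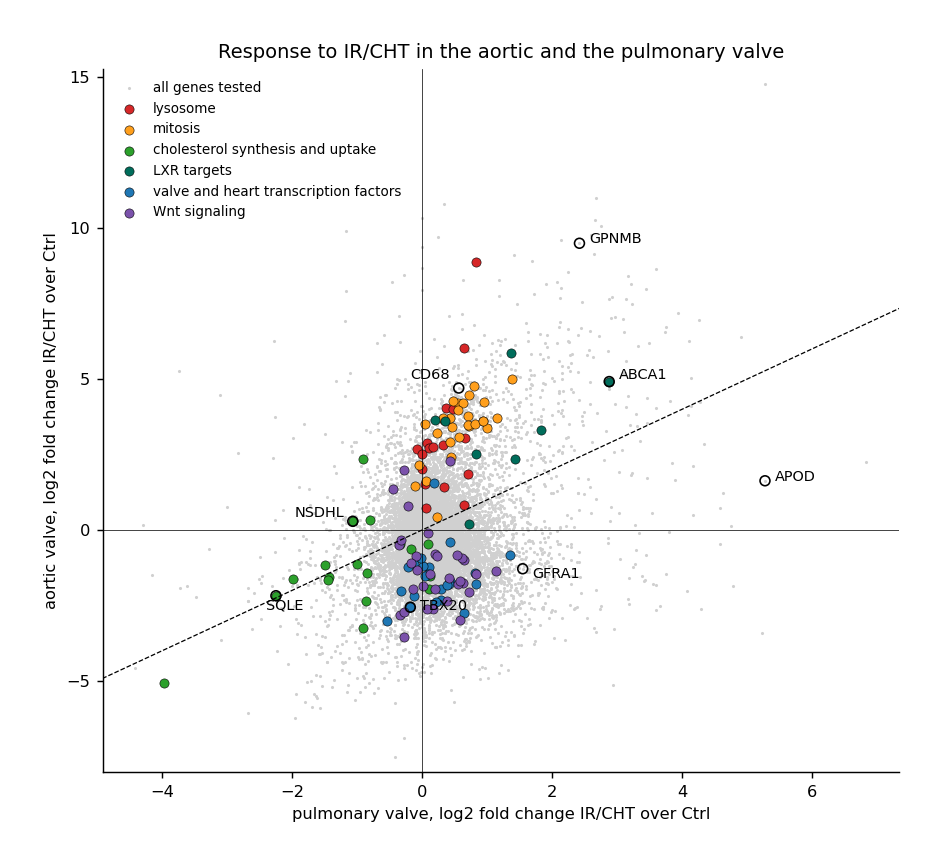
Each grey dot is 1 of the 15975 genes tested, placed by its log2 fold change from Ctrl to IR/CHT in the pulmonary valve (horizontal) and in the aortic valve (vertical), with members of 6 gene lists in color and circled genes named; on the dashed line both valves respond alike. Lysosome and mitosis genes lie high above the line near a pulmonary response of 0, valve transcription factors and Wnt genes lie below it, and SQLE lies close to the line.

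Most of the genes that differed were called in AoV and not in PV. Of the 2689 genes shifted upwards, 2297 were called in AoV alone, 39 in both valves, 2 in PV alone and 351 in neither. Of the 3727 shifted downwards, 3104 were called in AoV alone, 2 in both, 8 in PV alone and 613 in neither. The valves differed from each other to begin with, with 9700 genes apart in Ctrl (60.7%; 31.5% higher and 29.2% lower in AoV) and 9746 in IR/CHT (61%; 30.6% and 30.4%). In 6409 of the 6416 genes the AoV response had the sign of the interaction. The interaction is the AoV change minus the PV change, so this agreement follows largely from its definition. Among the 73 genes called in PV, 56 were also called in AoV, 55 of them in the same direction, and 15 of these 56 showed no tested difference between the valves.

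The 10 genes with the smallest p for a larger rise in AoV were GLB1 (lysosomal beta-galactosidase), CCDC15, GPNMB, CD68, CTSB (cathepsin B), ABHD12, PLAU (urokinase), LIPA (lysosomal acid lipase), ATP6V1H and ATP6V1A, the last 2 being subunits of the proton pump that acidifies lysosomes. GPNMB, a membrane glycoprotein of lipid-laden macrophages, moved the most of them. Its level in AoV was 4.04, 7.15 and 12.2 CPM (lowest, median and highest of 7) in Ctrl and 3299, 4018 and 9376 CPM in IR/CHT. In PV it was 2.94, 6.43 and 7.53 CPM in Ctrl and 15.2, 26.9 and 63.3 CPM in IR/CHT. Every treated valve thus lay above every control valve on both sides of the heart, but the pulmonary libraries never reached the aortic range. GPNMB rose by 9.50 ± 0.44 (log2 fold change ± SE) in AoV and by 2.42 ± 0.32 in PV, a difference of 7.08 ± 0.48 (adjusted p = 2.9e-16).

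Genes of sterol synthesis fell in both valves. Of 18 tested genes of cholesterol synthesis and uptake, 12 fell and 1 rose in AoV and 8 fell in PV, with median log2 changes of -1.47 and -0.91, against -0.12 and 0.05 over all genes. The interaction was called for 7 of them, 3 upwards and 4 downwards, with a median of -0.18, close to the -0.19 of all genes, and these counts were near the background shares of 16.8% upwards and 23.3% downwards. SQLE (squalene epoxidase, a rate-limiting step of sterol synthesis) had 13.0, 23.4 and 48.0 CPM in AoV Ctrl and 4.93, 5.83 and 7.42 CPM in AoV IR/CHT. In PV it had 13.3, 20.9 and 43.4 CPM in Ctrl and 3.83, 5.42 and 6.55 CPM in IR/CHT. Treated and control libraries did not overlap in either valve, and the 4 ranges were nearly the same on both sides. The log2 changes of -2.18 ± 0.27 and -2.25 ± 0.27 differed by 0.07 ± 0.36 (adjusted p = 0.89). INSIG1, HMGCS1, CYP51A1 and MSMO1, picked after their values were seen, were also called down in both valves and not by the interaction.

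Among the 7 sterol genes called by the interaction, FDFT1 (squalene synthase) and LSS (lanosterol synthase) were shifted downwards in AoV, by -1.49 ± 0.36 and -1.65 ± 0.38. NSDHL, a sterol dehydrogenase, went the other way. It had 11, 17.9 and 41.3 CPM in AoV Ctrl and 16.0, 24.1 and 35.8 CPM in AoV IR/CHT, against 18.9, 27.3 and 34.1 CPM in PV Ctrl and 8.52, 12.3 and 16.4 CPM in PV IR/CHT. The aortic groups overlapped and the pulmonary groups did not, and NSDHL was called down in PV, though not with plate 1 alone (-0.96), and not in AoV (AoV 0.29 ± 0.20, PV -1.07 ± 0.20, interaction adjusted p = 0.00011).

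STARD4, which carries cholesterol between membranes and is normally regulated like the synthesis genes, differed more. AoV had 2.04, 3.91 and 7.67 CPM in Ctrl and 14.8, 21.2 and 24.9 CPM in IR/CHT, whereas PV had 3.43, 5.49 and 6.85 CPM in Ctrl and 0.671, 2.88 and 4.37 CPM in IR/CHT. It rose in every treated aortic library beyond the controls, and in PV the groups overlapped with the lower values in treated libraries. The interaction was 3.27 ± 0.40 (adjusted p = 5.1e-09).

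LXR targets rose in both valves and further in AoV. Of 8 tested, 7 rose in AoV and 5 in PV, and 6 were called upwards by the interaction, with median changes of 3.46 in AoV and 1.10 in PV. ABCA1, the pump that hands cholesterol to apolipoprotein A-I, had 26.8, 55.6 and 98.3 CPM in AoV Ctrl and 1236, 1592 and 2082 CPM in AoV IR/CHT. In PV it had 76.5, 108 and 150 CPM in Ctrl and 644, 805 and 1023 CPM in IR/CHT. The order of the valves was turned around by the treatment, since ABCA1 was lower in AoV than in PV in 7 of 7 Ctrl rabbits and higher in 7 of 7 IR/CHT rabbits. It rose by 4.92 ± 0.24 in AoV and 2.88 ± 0.22 in PV (interaction 2.04 ± 0.29, adjusted p = 2.2e-07). NR1H3, which encodes LXR alpha itself, rose by 3.32 ± 0.30 and 1.83 ± 0.29 (interaction adjusted p = 0.0020), and LPCAT3, a phospholipid-remodelling enzyme, by 2.51 ± 0.22 and 0.83 ± 0.21 (interaction adjusted p = 8.5e-06). The pulmonary call of LPCAT3 was lost in 17 of the 28 fits without 1 library, with changes of 0.71 to 0.92, and with the rabbit as a random effect (0.81, adjusted p = 0.10, limma voom).

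**Figure D2:**
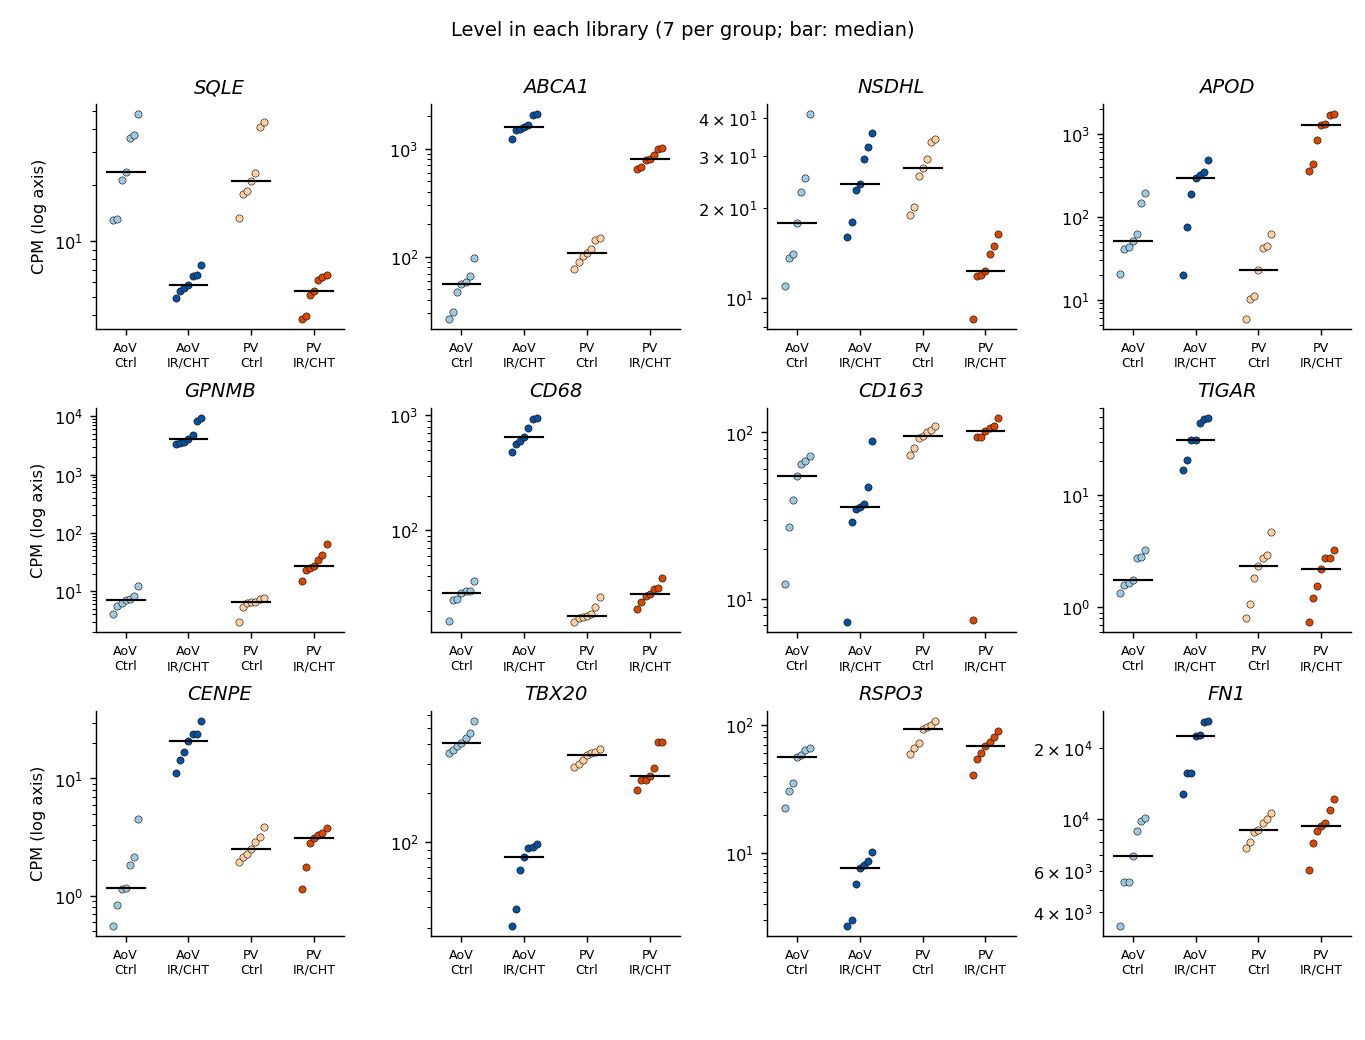
Level of 12 genes in CPM on log axes in each of the 7 libraries of AoV Ctrl, AoV IR/CHT, PV Ctrl and PV IR/CHT, with a bar at the median. SQLE falls alike in both valves, ABCA1 and GPNMB rise in both and further in AoV, NSDHL separates the pulmonary groups but not the aortic ones, APOD rises most in PV, and CD68, TIGAR, CENPE, TBX20, RSPO3 and FN1 separate the aortic groups while the pulmonary groups overlap.

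Lysosome genes rose in AoV with no call in PV. All 17 tested members were called up in AoV and none in PV (edgeR; no pulmonary adjusted p under 0.05 with a fold over 1.5), while 7 rose in PV at an unadjusted p under 0.05 and DESeq2 called none there. The interaction was called upwards for 16 and downwards for none, with medians of 2.73 in AoV, 0.32 in PV and 2.50 for the difference. CTSB, the most strongly supported protease, had 270.9, 435 and 464 CPM in AoV Ctrl and 4123, 5984 and 11370 CPM in AoV IR/CHT, and 278.3, 449 and 475 CPM in PV Ctrl and 476, 564.4 and 627 CPM in PV IR/CHT. The controls of both valves covered nearly the same range. The treated pulmonary libraries lay just above their controls, and the treated aortic libraries lay far above all others (interaction 3.68 ± 0.26, adjusted p = 2.4e-15). CTSS, the cathepsin that trims the MHC class II chain, rose by 6.03 ± 0.36 in AoV and had 0.64 ± 0.29 in PV. NPC2, which moves cholesterol out of lysosomes, rose by 2.70 ± 0.15 and had 0.33 ± 0.14 in PV.

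Lipid storage and foam cell genes followed the same line, with 15 of 18 called upwards by the interaction and 1 downwards (median 3.27). Of the 18, 16 rose in AoV and 3 in PV. PLIN2, the coat protein of lipid droplets, rose by 3.62 ± 0.20 in AoV against 0.32 ± 0.18 in PV. LIPA, which frees cholesterol from its esters, rose by 4.86 ± 0.26 against 0.53 ± 0.22. LGALS3 (galectin-3) rose by 4.29 ± 0.31 against -0.39 ± 0.27, and the scavenger receptor gene MSR1 rose in both valves, by 4.67 ± 0.35 and 1.59 ± 0.31 (interaction 3.08 ± 0.44, adjusted p = 1.5e-07), although its pulmonary call was lost without the 4 Ctrl libraries richest in heart muscle markers (1.42, adjusted p = 0.055). SPP1 (osteopontin), secreted by macrophages and bone cells, had 45.5, 56.6 and 106 CPM in AoV Ctrl and 570.8, 1050 and 1842 CPM in AoV IR/CHT, against 25.3, 48.0 and 75.6 CPM and 17.1, 44.8 and 113 CPM in PV. Its pulmonary groups overlapped fully, and the interaction was 4.12 ± 0.57 (adjusted p = 9.5e-08).

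Macrophage markers summed to between 261.03 and 699 CPM in AoV Ctrl and between 2226 and 2932 CPM in AoV IR/CHT. The sums in PV were 638 to 822 CPM in Ctrl and 353 to 1070 CPM in IR/CHT, where the lowest value came from L275. Apart from L275, every PV IR/CHT library had at least 868 CPM and lay above all PV Ctrl libraries. Of 14 tested markers 9 were called upwards by the interaction and none downwards (median 1.48). Within PV 2 of the 14 were called up, with a median change of 0.61 against 2.48 in AoV. At an unadjusted p under 0.05, 10 rose in PV and none fell, where 1560 of all 15975 genes passed in either direction. CD68, a lysosomal membrane protein of macrophages, had 16.4, 28.4 and 36.0 CPM in AoV Ctrl and 477, 654 and 954 CPM in AoV IR/CHT, and 15.9, 17.8 and 26.3 CPM in PV Ctrl and 20.8, 27.9 and 38.3 CPM in PV IR/CHT. Only the aortic groups were apart. CD68 rose by 4.70 ± 0.22 in AoV and had 0.56 ± 0.19 in PV (interaction 4.14 ± 0.28, adjusted p = 2.9e-16).

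CD163, the hemoglobin scavenger receptor of resident macrophages, stood out from this list. Its level was 12.3, 54.5 and 72.1 CPM in AoV Ctrl, 7.24, 35.6 and 88.9 CPM in AoV IR/CHT, 72.9, 94.7 and 109 CPM in PV Ctrl, and 7.45, 103 and 123 CPM in PV IR/CHT. Treated and control ranges overlapped in both valves, and the difference of the responses was -0.22 ± 0.60 (adjusted p = 0.79). VSIG4, a complement receptor of tissue macrophages, did respond, with 2.77 ± 0.29 in AoV and 0.75 ± 0.27 in PV (interaction adjusted p = 3.3e-05), as did CSF1R, the receptor for macrophage growth factor, with 2.32 ± 0.24 and 0.50 ± 0.23 (adjusted p = 1.3e-05).

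Other gene groups of leukocytes were shifted upwards in AoV. The interaction was called for 9 of 12 leukocyte integrins and adhesion genes (median 2.92), 19 of 21 innate receptors and signaling genes (3.17), 13 of 13 genes of the phagocyte oxidase and blood-cell actin regulators (3.01), 6 of 8 MHC class II genes (2.71) and 7 of 17 cytokines and receptors (1.61), all upwards. Chemokines and receptors had 7 of 15 upwards and 1 downwards (1.97). Smaller rises were seen within PV. At an unadjusted p under 0.05, 6 of the 12 integrins, 13 of the 21 innate receptors and 10 of the 13 phagocyte genes rose there. So did 6 of the 8 MHC class II genes and 7 of the 17 cytokines and receptors, but no chemokine or chemokine receptor. No member of these lists fell in PV at that level, where 1560 of all 15975 genes passed in either direction. ITGAM, the alpha chain of the myeloid integrin Mac-1, rose by 6.13 ± 0.31 in AoV and by 1.43 ± 0.26 in PV (interaction 4.70 ± 0.37, adjusted p = 3.1e-14), the latter not called with plate 1 alone (1.36, adjusted p = 0.053). ITGAL, its counterpart on lymphocytes, rose by 8.54 ± 0.54 in AoV. Its pulmonary change of 2.24 ± 0.45 was called, but not with the rabbit as a random effect (2.29, adjusted p = 0.32, limma voom) or without the 4 Ctrl libraries richest in heart muscle markers (2.07, adjusted p = 0.069). TYROBP, the adaptor of activating myeloid receptors, rose by 4.78 ± 0.30 in AoV against 0.76 ± 0.26 in PV.

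Of the MHC class II genes, 8 of 8 were called up in AoV and 3 of 8 in PV. CD74, the invariant chain, rose by 3.96 ± 0.33 in AoV and 1.42 ± 0.30 in PV (interaction 2.54 ± 0.42, adjusted p = 3.1e-06), and HLA-DRA by 4.90 ± 0.37 and 1.36 ± 0.32 (interaction 3.53 ± 0.46, adjusted p = 1.6e-08). The pulmonary change of HLA-DRA was 1.09 to 1.52 without 1 library, and its call was lost in 6 of 28 such fits and with the rabbit as a random effect (1.28, adjusted p = 0.073, limma voom). Without the 4 Ctrl libraries richest in heart muscle markers, the pulmonary calls of both CD74 (1.32, adjusted p = 0.073) and HLA-DRA (1.23, adjusted p = 0.14) were lost. The third, HLA-DMA, chosen after its values were seen, lost its call in 14 of 28 fits without 1 library. Among the ligands, CCL2, which recruits monocytes, rose by 3.40 ± 0.43 in AoV with 0.16 ± 0.40 in PV, and CXCL10, which recruits T cells, by 4.66 ± 0.65 with -0.21 ± 0.59. IL1B rose by 2.54 ± 0.74 in AoV, where its ranges overlapped, and its interaction of 3.15 ± 1.03 (adjusted p = 0.012) was lost with plate 1 alone. TNF rose by 4.29 ± 0.80 in AoV and had 2.19 ± 0.85 in PV, a difference that did not pass (2.10 ± 1.24, adjusted p = 0.17).

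Lymphocyte markers were shifted upwards too, with 4 of 6 for T and NK cells (median 3.56) and 3 of 5 for B and plasma cells (2.69). The T and NK cell markers summed to at most 5.93 CPM in the AoV Ctrl, PV Ctrl and PV IR/CHT libraries and to between 32.5 and 60.7 CPM in AoV IR/CHT. JCHAIN, which joins secreted antibodies, rose by 4.82 ± 0.46 in AoV and had -0.04 ± 0.41 in PV. Neutrophil genes were not called. None of 6 neutrophil markers (median 0.48) and none of 8 neutrophil granule genes (0.48) passed the interaction test in edgeR, at an unadjusted p under 0.05 or in DESeq2, although 4 of the 8 granule genes rose in AoV, and the neutrophil markers summed to at most 13.2 CPM in any of the 28 libraries. Mast cell markers had no call among 3 (median 1.88), with 1 at an unadjusted p under 0.05 and 1 by DESeq2.

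Complement genes were split. The interaction was called upwards for 7 of 11 and downwards for 3 (median 1.28). The anaphylatoxin receptors C5AR1 and C3AR1 rose by 4.65 ± 0.31 and 3.55 ± 0.43 in AoV with 0.46 ± 0.28 and 0.52 ± 0.39 in PV. C1R, the protease that starts the classical pathway, had 291, 392 and 485 CPM in AoV Ctrl and 221, 394 and 551.8 CPM in AoV IR/CHT, but 143, 187.6 and 265.2 CPM in PV Ctrl and 312, 405 and 997 CPM in PV IR/CHT. Its aortic groups overlapped and its pulmonary groups did not, with the highest value in L176. The rise of 1.34 ± 0.22 in PV against 0.03 ± 0.22 in AoV gave an interaction of -1.31 ± 0.31 (adjusted p = 0.00069). SERPING1, the C1 inhibitor, was shifted the same way by -0.94 ± 0.23 (adjusted p = 0.0010).

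Interferon-response genes rose in AoV. Of 17 tested, 16 were called up in AoV and none in PV (4 up at an unadjusted p under 0.05, none by DESeq2), and the interaction was called upwards for 14 (median 1.71). IFIT3, an antiviral effector, had 2.37, 4.35 and 8.86 CPM in AoV Ctrl and 53.6, 77.2 and 192.3 CPM in AoV IR/CHT, against 10.1, 11.3 and 18.7 CPM in PV Ctrl and 11.5, 13.6 and 28.5 CPM in PV IR/CHT. In Ctrl rabbits it was lower in AoV than in PV in 7 of 7, and in IR/CHT rabbits higher in 7 of 7 (interaction 3.82 ± 0.41, adjusted p = 1.5e-10). GBP1, a guanylate-binding protein induced by interferon gamma, rose by 4.37 ± 0.40 in AoV with 0.11 ± 0.36 in PV.

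Among cell division genes, those of mitosis formed one of the most uniform groups. Of 29 tested mitosis genes, 28 rose in AoV and none was called in PV (5 up at an unadjusted p under 0.05, none by DESeq2), and 28 were called upwards by the interaction (median 2.96). CENPE, a kinesin of the kinetochore, had 0.554, 1.17 and 4.52 CPM in AoV Ctrl and 11.1, 21.0 and 30.7 CPM in AoV IR/CHT, while PV had 1.93, 2.52 and 3.89 CPM in Ctrl and 1.14, 3.10 and 3.82 CPM in IR/CHT. The pulmonary ranges were nearly identical (interaction 3.48 ± 0.51, adjusted p = 3.4e-07). DNA replication genes had 12 of 19 called upwards (median 1.27), among them RRM2, the inducible subunit of ribonucleotide reductase, with 5.23 ± 0.48 in AoV and 1.03 ± 0.43 in PV, and the helicase subunit MCM4 with 3.04 ± 0.24 and 0.41 ± 0.23.

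Targets of p53 were shifted upwards for 7 of 17, with none downwards (median 0.51, and 1.14 in AoV against 0.28 in PV). TIGAR, which slows glycolysis, had 1.35, 1.74 and 3.24 CPM in AoV Ctrl and 16.6, 30.8 and 48.9 CPM in AoV IR/CHT, against 0.800, 2.33 and 4.66 CPM in PV Ctrl and 0.738, 2.19 and 3.27 CPM in PV IR/CHT. The aortic groups were far apart and the pulmonary groups overlapped (interaction 4.15 ± 0.46, adjusted p = 3.5e-10). ZMAT3, an RNA-binding protein, rose by 1.76 ± 0.15 in AoV with 0.07 ± 0.15 in PV, and GADD45A, a stress sensor, by 1.14 ± 0.17 with 0.26 ± 0.17. CDKN1A and MDM2, the classical p53 targets, were not analysed here.

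**Figure D3:**
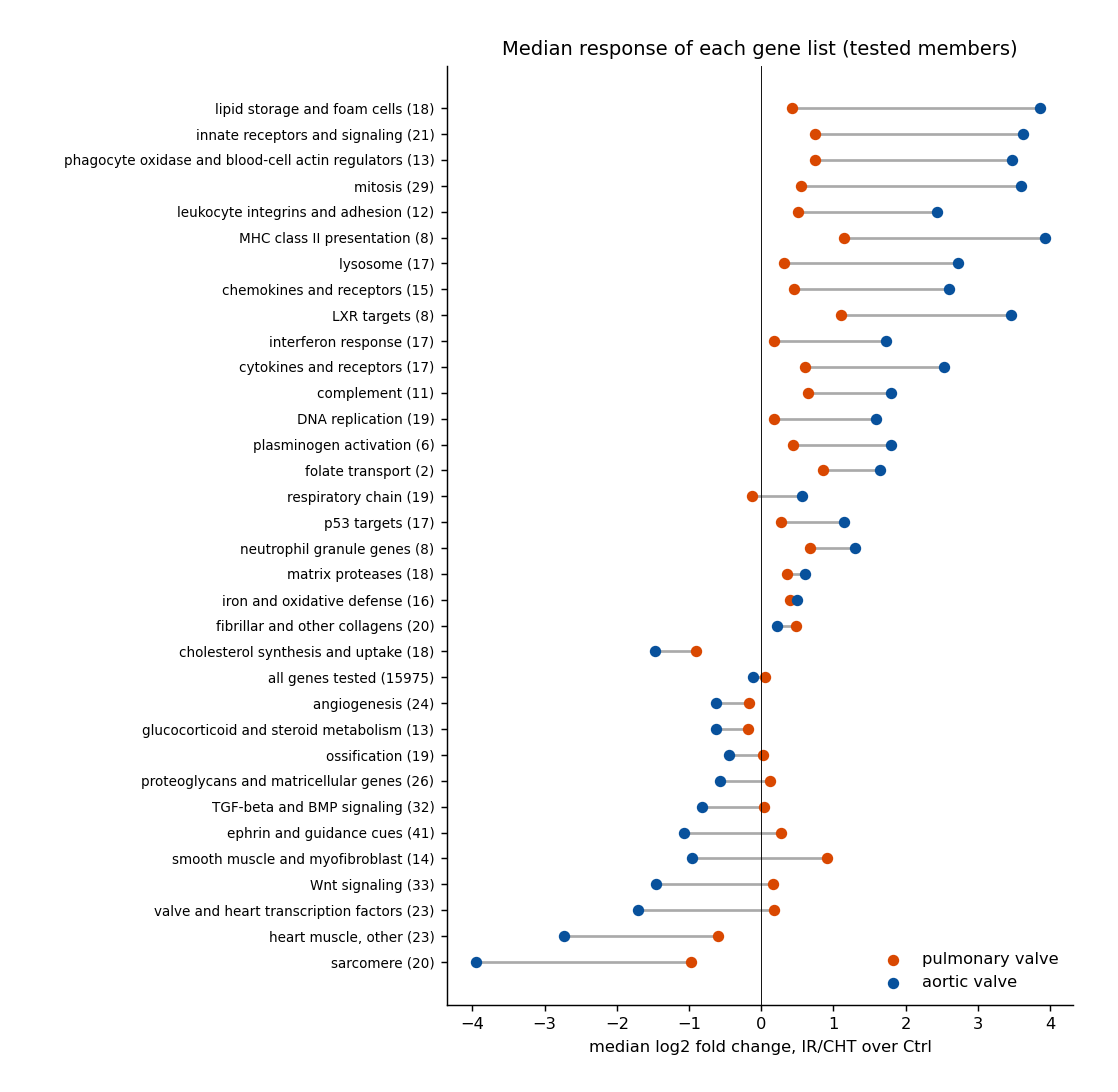
Median log2 fold change from Ctrl to IR/CHT over the tested members of each of 33 gene lists, with the number of members in brackets, in the pulmonary valve (orange) and the aortic valve (blue), beside all 15975 genes. Aortic medians range from -3.95 for sarcomere genes to 3.93 for MHC class II genes, and pulmonary medians from -0.97 to 1.15.

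The 10 genes with the smallest p for a larger fall in AoV were FHOD3, PDE3A, CNGA2, PRKG1, NCAM1, TGFBR3, TET1, ADAM2, TRPM3 and PCNX2. FHOD3, a formin that assembles actin filaments, had 80.3, 119 and 189.4 CPM in AoV Ctrl and 12.1, 20.9 and 25.4 CPM in AoV IR/CHT, and 81.7, 101 and 129 CPM in PV Ctrl and 108, 118 and 150 CPM in PV IR/CHT. Its aortic groups did not overlap and its pulmonary groups did (interaction -3.05 ± 0.23, adjusted p = 8.3e-15). TRPM3, a calcium-permeable channel, had 91.4, 150 and 198.2 CPM in AoV Ctrl and 3.08, 9.86 and 13.3 CPM in AoV IR/CHT, against 145, 186.1 and 233.2 CPM and 120, 144 and 220 CPM in PV. All treated aortic libraries lay below all others (interaction -3.85 ± 0.35, adjusted p = 2.3e-12). PDE3A and PRKG1, which act in cyclic nucleotide signaling, were shifted by -1.79 ± 0.14 and -2.48 ± 0.21.

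Transcription factors of valve and heart development fell in AoV. Of 23 tested, 19 fell and 1 rose in AoV, none was called in PV (1 up at an unadjusted p under 0.05, none by DESeq2), and the interaction was called downwards for 17 and upwards for 1 (median -2.13). TBX20, a T-box factor needed for valve growth, had 350, 401 and 546.6 CPM in AoV Ctrl and 30.8, 81.2 and 97.2 CPM in AoV IR/CHT, and 286, 340 and 372 CPM in PV Ctrl and 209, 252 and 411 CPM in PV IR/CHT. It fell by 2.56 on the log2 scale in AoV with -0.18 in PV (interaction -2.38 ± 0.27, adjusted p = 5.9e-10). GATA4, HEY1 and SOX9, which act in endocardial cushions and valve leaflets, were shifted by -2.61 ± 0.39, -2.20 ± 0.35 and -2.24 ± 0.42, and HAND1, expressed in ventricular outflow tissue, by -3.41 ± 0.59.

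The mean level of these factors reversed its order between the valves. In Ctrl rabbits, the mean log2 CPM of the 23 genes was higher in AoV than in PV of the same animal in 7 of 7, by 0.43 to 1.18. In IR/CHT rabbits it was lower in AoV in 7 of 7, by 0.26 to 1.31. Wnt genes and the TGF-beta and BMP genes also went from 7 of 7 to 0 of 7. For lysosome genes, AoV was higher in 4 of 7 Ctrl rabbits, with differences between -0.13 and 0.11, and in 7 of 7 IR/CHT rabbits, by 2.30 to 3.20.

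**Figure D4:**
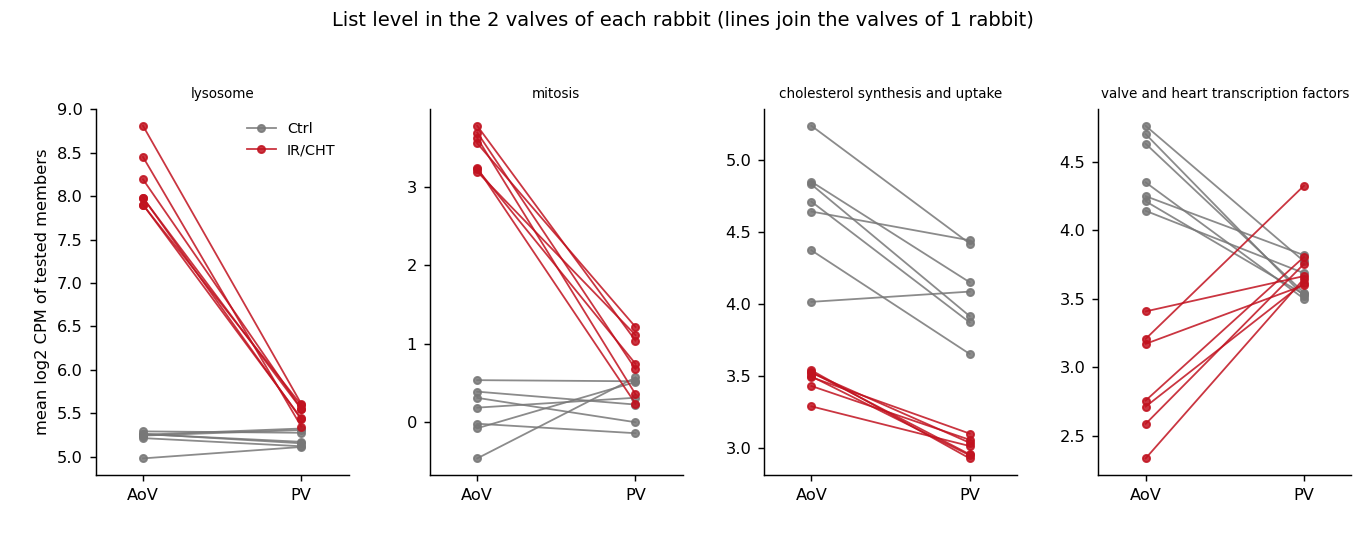
Mean log2 CPM of the tested members of 4 gene lists in the aortic and the pulmonary valve, with a line joining the valves of each rabbit (grey Ctrl, red IR/CHT, 7 rabbits each). Lysosome and mitosis lines separate at the aortic end, cholesterol synthesis and uptake drops at both ends, and the lines of the transcription factors slope in opposite directions in Ctrl and IR/CHT.

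Wnt signaling genes were shifted downwards for 22 of 33 and upwards for 2 (median -1.83), and 24 of the 33 fell in AoV with none called in PV (3 up at an unadjusted p under 0.05, none by DESeq2). RSPO3, a secreted amplifier of Wnt signals, had 22.4, 56.4 and 65.6 CPM in AoV Ctrl and 2.73, 7.75 and 10.3 CPM in AoV IR/CHT, against 59.2, 91.9 and 106 CPM and 40.3, 68.7 and 89.3 CPM in PV. DKK2, a secreted Wnt modulator, had 30.4, 45.7 and 65.3 CPM in AoV Ctrl and 1.47, 3.82 and 5.84 CPM in AoV IR/CHT, with 36.7, 49.2 and 61.5 CPM and 22.0, 38.7 and 57.0 CPM in PV. For both, the aortic groups were apart and the pulmonary groups overlapped (interactions -2.49 ± 0.35 and -3.27 ± 0.42). The ligand WNT5A and the inhibitors FRZB and APCDD1 were shifted by -2.68 ± 0.38, -1.88 ± 0.33 and -3.58 ± 0.53. DKK1, an inhibitor of the Wnt coreceptor, was 1 of the 2 shifted upwards, but its interaction of 2.25 ± 0.91 (adjusted p = 0.043) was lost when any of several single libraries was left out.

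TGF-beta and BMP signaling genes had 17 of 32 shifted downwards and 5 upwards (median -1.13). The ligands BMP3 and BMP2 were shifted by -3.23 ± 0.34 and -2.16 ± 0.39, the BMP-like ligand GDF10 by -5.18 ± 0.88, and the receptors BMPR1A and TGFBR3 by -1.22 ± 0.20 and -2.11 ± 0.19. ID2, a target of BMP signals, was shifted upwards by 1.71 ± 0.30. Ephrins and other guidance cues had 18 of 41 downwards and 5 upwards (median -1.24). In that list the receptor gene EPHA3 and the semaphorins SEMA3B and SEMA5A went down, by -2.58 ± 0.35, -3.29 ± 0.52 and -2.36 ± 0.36, while SEMA4D, a semaphorin of leukocytes, and the receptor NRP2 went up, by 2.72 ± 0.37 and 2.199 ± 0.26.

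Matrix genes were divided. Proteoglycans and matricellular genes had 13 of 26 shifted downwards and 3 upwards (median -0.80), and collagens 4 of 20 downwards and 1 upwards (-0.18, near that of all genes). The collagen counts were not above the shares over all genes, 23.3% downwards and 16.8% upwards. FN1, the fibronectin that forms provisional matrix, had 3508, 6962 and 10069 CPM in AoV Ctrl and 12761, 22481 and 25978 CPM in AoV IR/CHT, but 7506, 8992 and 10558 CPM in PV Ctrl and 6034, 9300 and 12114 CPM in PV IR/CHT. It rose by 1.501 ± 0.18 in AoV alone (interaction 1.47 ± 0.25, adjusted p = 7.1e-06). The collagen-binding proteins DCN (decorin) and DPT (dermatopontin) were shifted downwards by -1.60 ± 0.43 and -2.26 ± 0.29, and the microfibril proteins MFAP4 and MFAP5 by -2.34 ± 0.44 and -2.55 ± 0.37. Markers of valve interstitial cells and fibroblasts had 6 of 13 downwards (median -1.28), although their summed level, 22423 to 35625 CPM in AoV IR/CHT against 23193 to 30827 CPM in AoV Ctrl, overlapped.

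Matrix proteases and their inhibitors had 6 of 18 shifted upwards and 3 downwards (median 0.24), and plasminogen activation 3 of 6 upwards (1.21). TIMP1 and TIMP4, both inhibitors of metalloproteinases, moved apart. TIMP1 had 47.0, 62.0 and 100 CPM in AoV Ctrl and 387, 490 and 732 CPM in AoV IR/CHT, against 49.6, 61.3 and 75.04 CPM and 56.6, 76.8 and 103 CPM in PV (interaction 2.45 ± 0.24, adjusted p = 1.3e-11). TIMP4 had 18.4, 54.5 and 66.7 CPM in AoV Ctrl and 0.600, 1.85 and 4.27 CPM in AoV IR/CHT, against 29.9, 41.4 and 57.0 CPM and 17.6, 40.3 and 54.9 CPM in PV (interaction -4.35 ± 0.48, adjusted p = 3.7e-10). In each case only the aortic groups were apart.

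PLAU had 7.67, 12.8 and 21.8 CPM in AoV Ctrl and 145, 191.9 and 310 CPM in AoV IR/CHT, and 16.9, 25.6 and 30.5 CPM in PV Ctrl and 12.8, 15.2 and 24.0 CPM in PV IR/CHT. It was higher in AoV than in PV in 1 of 7 Ctrl rabbits and in 7 of 7 IR/CHT rabbits (interaction 4.31 ± 0.32, adjusted p = 7.5e-15).

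Ossification genes had 7 of 19 shifted downwards and 2 upwards (median -0.76). BGLAP (osteocalcin) fell by 3.55 on the log2 scale in AoV with 0.03 in PV (interaction -3.58 ± 0.96, adjusted p = 0.0024), and PTH1R, the parathyroid hormone receptor, was shifted by -1.77 ± 0.43. RUNX2, the factor that commits cells to bone, rose by 2.48 ± 0.57 in AoV, where its ranges overlapped, and had 0.79 ± 0.57 in PV, a difference that did not pass (1.69 ± 0.80, adjusted p = 0.088) but did without AoV Ctrl L198 (2.04, adjusted p = 0.038) or PV Ctrl L242 (1.90, adjusted p = 0.044). Its aortic change was 1.76 and not called with plate 1 alone (adjusted p = 0.053). ALPL, the phosphatase of mineralizing cells, was not called (AoV -0.36 ± 0.52, PV 0.54 ± 0.56, interaction adjusted p = 0.36). IBSP (bone sialoprotein) was called up in AoV but had mean levels of only 1.95 CPM in AoV IR/CHT and 0.041 CPM in AoV Ctrl, and its interaction was not called (adjusted p = 0.77). SP7, an osteoblast factor, had too few counts to be tested.

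Muscle genes showed the dependence on single libraries. Sarcomere genes had 9 of 20 shifted downwards (median -2.93; AoV -3.95, PV -0.97), other heart muscle genes 9 of 23 downwards and 1 upwards (-2.20), and heart muscle cell markers 4 of 7 downwards (-3.57). MYL3, MYOM2 and MYH7, all components of the sarcomere, were shifted by -4.61 ± 1.37, -4.25 ± 1.33 and -4.40 ± 1.58, and these calls were lost with plate 1 alone, the last also without AoV Ctrl L240. Without L240 the sarcomere count was 5 and that of the heart muscle cell markers 0; without the 4 Ctrl libraries richest in heart muscle markers (2 of each valve) they were 14 and 6. The heart muscle markers of the Ctrl libraries ran from 171.4 to 12073 CPM in AoV and from 38.5 to 5667 CPM in PV, and the part of attached myocardium in these shifts was not tested.

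Smooth muscle and myofibroblast genes had 9 of 14 shifted downwards (median -1.69), with 7 down and 2 up in AoV and 4 up in PV, and smooth muscle cell markers 3 of 7 downwards (-1.73). LMOD1 and SMTN, regulators of smooth muscle filaments, were shifted by -3.57 ± 0.69 and -3.43 ± 0.71. ACTA2 (smooth muscle actin) had 140, 200 and 278.4 CPM in AoV Ctrl and 280, 413 and 623 CPM in AoV IR/CHT, and 112, 181.2 and 416 CPM in PV Ctrl and 80.8, 360 and 2095 CPM in PV IR/CHT. It rose in AoV by 1.05 ± 0.36. In PV its groups overlapped, and its change of 1.51 ± 0.36 was 0.64 and not called without L176, which gave the highest value; the call was lost in 7 of 28 fits without 1 library and with the rabbit as a random effect (0.9988). The interaction was not called (-0.46 ± 0.50, adjusted p = 0.49). Without L176 the list had 8 downwards and 1 upwards, with a median of -1.01; ACTG2 (smooth muscle gamma actin), chosen after its values were seen, was the gene then called upwards. ACTG2 and MYH11 (smooth muscle myosin), also called up in PV, had pulmonary changes of 0.89 and 0.43 without L176 and no call.

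A handful of genes responded more in PV. Of the 73 genes called in PV, 12 were called by the interaction with the larger change there. APOD (apolipoprotein D, a carrier of small lipids) had 5.88, 22.8 and 61.1 CPM in PV Ctrl and 360, 1275 and 1723 CPM in PV IR/CHT, against 20.4, 50.2 and 195.1 CPM in AoV Ctrl and 19.6, 296 and 478 CPM in AoV IR/CHT. The pulmonary groups were far apart and the aortic ones overlapped. APOD rose by 5.28 ± 0.66 in PV and 1.63 ± 0.57 in AoV (interaction -3.65 ± 0.81, adjusted p = 0.00029), the aortic change being 0.81 and not called with plate 1 alone, and was higher in AoV than in PV in 6 of 7 Ctrl rabbits and in 0 of 7 IR/CHT rabbits.

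GFRA1, a receptor for glial-derived neurotrophic factor, was the only gene called in both valves in opposite directions. It had 0.772, 1.89 and 4.86 CPM in AoV Ctrl and 0.343, 0.811 and 2.04 CPM in AoV IR/CHT, and 2.39, 3.33 and 8.90 CPM in PV Ctrl and 7.28, 9.15 and 27.2 CPM in PV IR/CHT. Treated and control ranges overlapped in each valve at these low levels, and the pulmonary call was lost in 9 of 28 fits without 1 library, with changes of 1.23 to 1.82 (AoV -1.29 ± 0.40, PV 1.55 ± 0.38, interaction -2.83 ± 0.55, adjusted p = 4.0e-05). RYR3, a calcium release channel, and ST6GAL2, a sialyltransferase, had changes of 1.84 ± 0.41 and 3.38 ± 0.83 in PV, called but with overlapping ranges, and -0.77 ± 0.40 and -1.52 ± 0.81 in AoV. Without PV IR/CHT L176 their pulmonary changes were 0.59 and 1.38, with the rabbit as a random effect 1.27 and 1.60, and neither was called in either case.

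The valves were then compared for the step from CHT to IR/CHT, which adds irradiation to the same diet, with the dose in PV not known. This step differed between AoV and PV for 2219 genes (13.9%), 664 of them shifted upwards in AoV (4.16%) and 1555 downwards (9.73%), with a median over all genes of -0.11. It shares the IR/CHT libraries with the comparison above, and the AoV CHT libraries all lay on plate 1. Lysosome genes were called upwards for 12 of 17 (median 1.04), interferon-response genes for 10 of 17 (1.27), innate receptors for 9 of 21 (1.02), lipid storage genes for 8 of 18 (0.94) and p53 targets for 4 of 17 (0.58). TGF-beta and BMP genes were called downwards for 14 of 32 (-0.51), valve transcription factors for 12 of 23 (-1.15), Wnt genes for 11 of 33 (-1.09) and guidance cues for 10 of 41 (-0.64, with 2 upwards). Without AoV CHT L151 and without PV IR/CHT L275 the median of the guidance cues was -0.31 and -0.35, with 9 and 8 called downwards, and it was -0.37 with the rabbit block. The TGF-beta and BMP median was -0.78, with 11 called downwards and 1 upwards, without PV CHT L230. The count of innate receptors was 4 with plate 1 alone and 5 without AoV CHT L244, and that of p53 targets was 1 in both cases and 2 without any 1 of AoV IR/CHT L236, PV IR/CHT L549, AoV CHT L228, PV CHT L188 and PV CHT L230.

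Muscle genes were shifted downwards in this step as well, by the largest medians of the 33 lists. Sarcomere genes were called for 8 of 20 (median -4.08), other heart muscle genes for 5 of 23 (-1.91) and smooth muscle and myofibroblast genes for 7 of 14 (-1.58), with none upwards. Heart muscle markers summed to 15.6 to 52.8 CPM in PV CHT and 62.4 to 1777 CPM in PV IR/CHT, without overlap, and to 14.8 to 367 CPM in AoV CHT and 27.5 to 237.2 CPM in AoV IR/CHT. Their part in the step was not tested. With the rabbit as a replicate block the 3 counts were 2, 1 and 4 and the medians -3.21, -1.75 and -1.02. The sarcomere count was higher with DESeq2 (13), with the CHT and IR/CHT libraries alone (14) and without the 4 Ctrl libraries richest in heart muscle markers (13), and that of other heart muscle genes was 8 with the CHT and IR/CHT libraries alone. Without PV IR/CHT L176 the count of smooth muscle and myofibroblast genes was 3 (median -0.81) and that of other heart muscle genes 2. The sarcomere count was 5 without AoV CHT L244. Without PV CHT L230 the count of other heart muscle genes was 3 and that of smooth muscle and myofibroblast genes 4, as they were without PV CHT L246 and PV CHT L188, respectively.

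The 5 genes with the smallest p in this step were, upwards, GGH (an enzyme of folate breakdown), TIMP1, PLIN2, SNX24 and CTSV and, downwards, PDE3A, TET1, CNGA2, PCNX2 and TGFBR3. TBX20 was shifted by -2.13 (adjusted p = 5.0e-07), against a log2 change from Ctrl to CHT of -0.94 in AoV. TIMP4 was shifted by -3.58, ZMAT3 by 1.05 and TIMP1 by 1.73 (adjusted p = 1.3e-06, 0.00073 and 2.7e-06).

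For cell division genes, edgeR made no call in this step. No mitosis gene was called among 29 (median 0.67, against -0.11 over all genes; 6 up at an unadjusted p under 0.05, 1 by DESeq2) and no DNA replication gene among 19 (0.60; 4 up, 1 by DESeq2), while the median mitosis change from Ctrl was 3.04 on CHT and 3.60 on IR/CHT in AoV, and 0.73 and 0.55 in PV. GPNMB rose by 7.28 from Ctrl to CHT in AoV already, and its step to IR/CHT did not differ between the valves by test (0.41, adjusted p = 0.62). SQLE (-0.25, adjusted p = 0.73) and ABCA1 (0.61, adjusted p = 0.19) had no call either. Median changes of the valve transcription factors in AoV were -0.56 on CHT and -1.70 on IR/CHT, and those of the p53 targets 0.33 and 1.14.

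**Figure D5:**
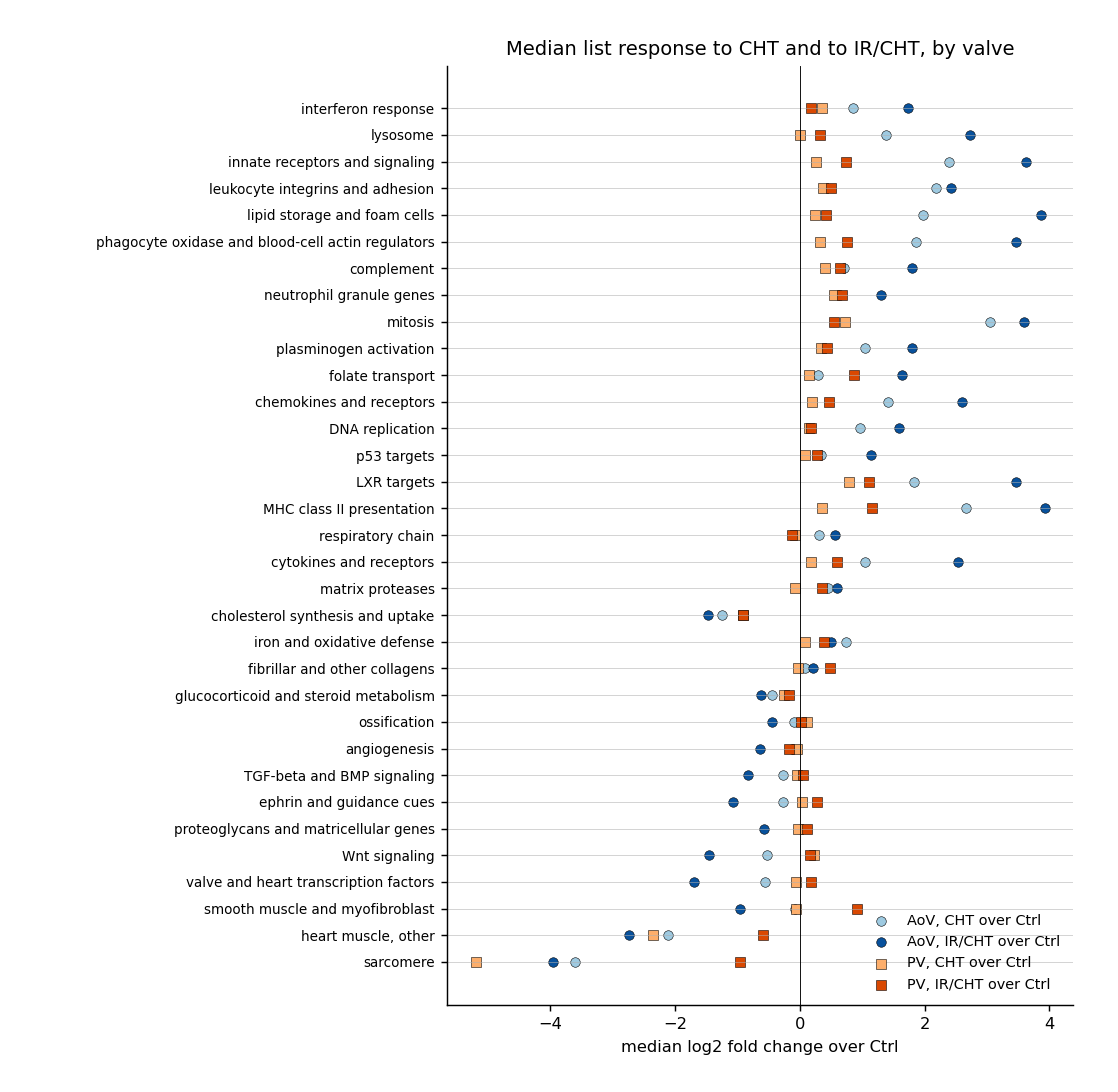
Median log2 fold change over Ctrl of the tested members of 33 gene lists on CHT (light) and IR/CHT (dark) in AoV (blue circles) and PV (orange squares); all 4 values of a list share the Ctrl libraries of their valve. The aortic medians of mitosis genes are close on CHT and IR/CHT, those of lysosome, interferon, p53 and valve transcription factor genes are further from 0 on IR/CHT, and cholesterol synthesis lies below 0 in all 4.

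The remaining lists were mixed, beside shares over all genes of 16.8% upwards and 23.3% downwards. Both counts of the angiogenesis list lay below those shares. Respiratory chain genes had 12 of 19 shifted upwards and 1 downwards (median 0.64), iron and oxidative defense 6 of 16 upwards and 1 downwards (0.10), glucocorticoid and steroid metabolism 4 of 13 upwards and 6 downwards (-0.44), folate transport 1 of 2 upwards (0.78), and angiogenesis 2 of 24 upwards and 4 downwards (-0.40). TFRC, the transferrin receptor that imports iron, rose by 2.82 ± 0.26 in AoV with -0.33 ± 0.24 in PV, and HMOX1 (heme oxygenase) had 3.55 ± 0.34 and 1.54 ± 0.32, both called (interaction 2.01 ± 0.44, adjusted p = 0.00026). Its pulmonary call was lost without PV IR/CHT L176 (1.10), with the rabbit as a random effect (1.37), with plate 1 alone (1.83) and without the 4 Ctrl libraries richest in heart muscle markers (1.43). NR3C2, the mineralocorticoid receptor, was shifted by -1.78 ± 0.30, and ANGPT1, which stabilizes vessels, by -2.60 ± 0.39.

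Among the remaining marker lists, endothelial markers had 1 of 9 called upwards (median 0.14), adipocyte markers 4 of 5 downwards and 1 upwards (-3.01), Schwann cell and melanocyte markers 1 of 6 each way (-1.07) and red blood cell markers 1 of 3 downwards (-2.67). The endothelial counts and those of Schwann cells and melanocytes were not above the shares over all genes (16.8% upwards, 23.3% downwards). The summed endothelial markers ran from 93.4 to 737 CPM in AoV IR/CHT and from 110 to 697 CPM in AoV Ctrl. Adipocyte markers summed to 119 to 1060 CPM in AoV IR/CHT and 16.9 to 115 CPM in AoV Ctrl, so that their sum and the median of their shifts went in different directions. The Schwann cell and melanocyte markers had 3 falling and 1 rising in AoV. MLANA, a melanocyte gene, rose by 5.74 ± 0.57 in AoV with 0.22 ± 0.48 in PV, whereas ERBB3, a neuregulin receptor of Schwann cells, fell by 3.13 on the log2 scale with -0.0015 in PV (interaction -3.13 ± 0.50, adjusted p = 1.6e-06).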

How the data were processed

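RNA of heart valves and proximal aorta was sequenced with a strand-marking total RNA kit, and the authors deposited whole-number counts of read pairs per gene, without normalization, in 1 table for each of 2 plates. Per the study's methods, reads were mapped to OryCun 2.0 and counted on Ensembl genes with nf-core/rnaseq; the submitters' processing notes name bcl2fastq 2.20. The study's methods name the pipeline's default settings apart from read trimming and do not state the strand setting itself. Overlapping genes on opposite strands may therefore share counts. Treatments and tissues came from the sample labels and the rabbit from the number in the library names.

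All 54 AoV and PV libraries (Ctrl, CHT, Lard, IR/CHT) were fitted in 1 edgeR 4.0.16 quasi-likelihood model (R 4.3.3; filterByExpr, TMM, robust) with a mean per tissue and treatment. Tests were two-sided, with Benjamini-Hochberg adjustment over 15975 genes; the interaction was called at an adjusted p under 0.05, and responses within a valve also needed a fold change over 1.5. CPM use TMM-scaled totals. Counting alone gives an SD of 26.7% at 1 CPM and 8.46% at 10 CPM in the smallest library. No libraries were identical. P-values measure the spread between rabbits, 7 per group and 6 in CHT.

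Gene lists (33 processes, 12 sets of markers) were written from general knowledge; the members and lists were chosen with earlier results of these data known, and lists are described by counts and medians without a test. List counts stand beside the shares called over all genes, upwards and downwards. These were 16.8% and 23.3% for the interaction, 20.1% and 24.8% within AoV, and 0.388% and 0.0689% within PV. For the step from CHT to IR/CHT they were 4.16% and 9.73%. List levels are mean log2 CPM (prior count 2). Named genes are, by smallest p, 10 in each direction of the interaction, 5 called in both valves in opposite directions, 5 called in PV with the larger change there, 5 called members of each list, 5 in each direction of the step from CHT to IR/CHT, and a fixed set of 24, of which PF4, IL6, CDKN1A and MDM2 were not analysed here and SP7 did not pass the filter; others are marked, and a few named genes are not reported here. With group means removed, the valves of 1 rabbit had a median correlation of 0.182 over 27 rabbits, against -0.033 for other rabbits of the treatment. The lowest was -0.136, and 8 of the 14 IR/CHT and Ctrl rabbits were over 0.1. The pairing of the valves rests on the rabbit number in the library names. Alternatives were DESeq2 1.42.0, its size factors, no filter, fewer libraries, plate, rabbit as a block (limma 3.58.1 voom within valves), and leaving out each library; 2 sets of libraries were left out after the data were seen. Scripts were tested on simulated data.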

Additional observations from a re-analysis of the deposited data

Results flagged for a closer look

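The 6416 genes whose response to IR/CHT differed between the valves, and the 2219 whose step from CHT to IR/CHT did, met the test of the difference itself.

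In all, 148 groups of 7 libraries, by gene or marker list, were screened for a library far from the others. Of these, 18 held one, where chance, at about 1 in 20, would give 7.4. PV IR/CHT L176 accounted for 5 of them, with 2095 CPM of ACTA2, 997 CPM of C1R, 28.5 CPM of IFIT3, and marker sums of 21355 CPM for smooth muscle and 44.0 CPM for red blood cells. PV IR/CHT L275 was low in CD163 (7.45 CPM), macrophage markers (353 CPM) and endothelial markers (112 CPM). Heart muscle markers were high in AoV Ctrl L240 (12073 CPM) and AoV IR/CHT L236 (237.2 CPM), and macrophage markers were low in AoV Ctrl L198 (261.03 CPM). The rest were single genes. CTSB was low in AoV Ctrl L150 (270.9 CPM) and PV Ctrl L153 (278.3 CPM), SPP1 was high in PV IR/CHT L259 (113 CPM), ACTA2 in PV Ctrl L263 (416 CPM), CENPE in AoV Ctrl L182 (4.52 CPM), STARD4 in AoV Ctrl L277 (7.67 CPM) and IFIT3 in PV Ctrl L184 (18.7 CPM). The causes were not tested.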

How the results depend on the processing

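The count of 6416 genes was between 5427 and 7008 under the alternatives run, apart from plate 1 alone (4976) and plate 2 alone (1304), and between 5757 and 6931 when 1 library was left out. The aortic count of 7173 was 3980 with plate 2 alone and 6703 to 7577 without 1 library. The pulmonary count of 73 was the least stable, with 43 on plate 1, 2 on plate 2, 32 with the rabbit as a random effect, 127 with DESeq2, 47 without AoV Ctrl L198, PV IR/CHT L176 and PV IR/CHT L275, 38 without the 4 Ctrl libraries richest in heart muscle RNA, and 41 to 92 without 1 library. The count of 2219 stayed within 1812 to 2724, and within 1753 to 2422 without 1 library. Its share shifted upwards, 29.9% in the main fit, depended on the settings. It was 41.7% without the filter on low counts, 39.4% with the size factors of DESeq2 in edgeR and 39.9% with DESeq2. With the CHT and IR/CHT libraries alone it was 37.0%. Smaller plate groups test fewer libraries; other causes were not tested.

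With the rabbit as a replicate block, the interaction was called for 6264 genes (6394 with plate as well). Among the single genes followed, the block lost no interaction call and added those of ACTG2 and PLTP. Within PV, the rabbit as a random effect removed the calls of ACTA2, ACTG2, HLA-DMA, HLA-DRA, HMOX1, ITGAL, LPCAT3, MYH11, RYR3 and ST6GAL2. Of 144 genes called by the interaction, 43 lost the call under some alternative, 37 of them with plate 2 alone and under no other, and none changed direction. The direction changed only for genes without a call. SQLE was -0.30 on plate 1, -0.10 without the 4 Ctrl libraries and between -0.11 and 0.25 without 1 library. CD163 was 0.079 on plate 1, 0.22 on plate 2 and 0.073 without the 4 Ctrl libraries. On plate 2, CYP51A1 was 0.20, HMGCS1 0.021 and MYH11 1.66. With the block, ACTA2 was 0.039, HMGCS1 0.064 and MYH11 1.11, and with block and plate ACTA2 was 0.046 and MYH11 1.14. Without the 3 libraries, ACTA2 was 0.19, HMGCS1 0.030 and MYH11 0.93. Without 1 library, ACTA2 lay between -0.75 and 0.36, MYH11 between -2.22 and 1.25 (both highest without PV IR/CHT L176) and HMGCS1 between -0.26 and 0.096.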
